A study of Mus musculus with 3 samples.

Results

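The immediate early FOS, JUN and EGR genes were chosen by name, as every probe whose gene in the platform annotation is 1 of 10 members: Fos, Fosb, Fosl1, Fosl2, Jun, Junb, Jund, Egr1, Egr2 and Ier2. The cells were Lewis lung carcinoma, a tumour line from the lung of the C57BL/6 mouse, and carry luciferase. Of the 10 genes 9 had a named probe, out of 19057 genes with one, and these 9 were read by 12 of 45281 probes. Fosl1 has no probe in that annotation and is not analysed here. The first group, LLC/luc P, is the parental line. LLC/luc BM1st is the line grown in culture from tibial lesions of mice that had received parental cells by injection into the heart, and LLC/luc BM2nd was grown in the same way from bone lesions of mice given BM1st cells. All 3 groups share the luciferase gene, the strain background and culture in DMEM with serum, and the labels call all of them osteotropic, the parental line included. There is 1 bead array of 1 culture for each line, so no value has a replicate, no p-value can be had, and precision is limited by this number of arrays. The BM1st and BM2nd cultures could still hold host cells from the lesions. How long the cells had been in their last medium is not stated in the sources used.

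Immediate early genes are transcribed within minutes of a stimulus such as serum, a growth factor or stress, without new protein synthesis, and their RNAs are short-lived. FOS and JUN proteins carry a basic region and a leucine zipper and bind DNA as the dimer AP-1. FOS proteins pair with JUN proteins, whereas JUN proteins can also pair among themselves. EGR proteins are zinc finger transcription factors induced through MAP kinases and the serum response factor, SRF. In bone, Fos is known for its role in the formation of osteoclasts.

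The deposited intensities had been normalized so that the sorted values of the arrays are nearly the same, and background was left in them. Background was therefore taken from 1504 probes for odorant and vomeronasal receptors, which such cells should lack. Their 95th percentile was an intensity of 109 in parental, 110 in BM1st and 107 in BM2nd cells. A gene entered a comparison if either array had it above background, and was called higher or lower past a log2 ratio of 1 or -1. Of the 9 members with a probe 8 lay above background on all 3 arrays, so none of these was let in by a single bright array, and Ier2 lay above it on none. The log2 ratios of the receptor probes had an SD of 0.12 in each of the 3 comparisons, and the SD between probes of the same gene had a median of 0.13 to 0.14 and a 95th percentile of 0.40 to 0.43. The first is technical, at background alone, and the second also holds differences in what the probes of a gene read. Neither measures how cultures of a line differ. Over all genes compared the robust SD of the log2 ratios was 0.30 to 0.33. In such RNA from whole cultures, fewer cells of a kind and less RNA per cell cannot be told apart.

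Fos, Fosb and Egr1 were the members with the largest differences. All of them were lowest in BM1st cells and highest in BM2nd cells, with parental cells in between. Fos, the founding member of its family, had an intensity of 7346 in parental, 1836 in BM1st and 9493 in BM2nd cells. Its log2 ratio of BM1st to parental cells was -2.00, and BM2nd cells stood 5.17-fold above BM1st cells, a log2 ratio of 2.37. Fosb, whose protein also pairs with JUN proteins and which is used as a marker of neuronal activity, had intensities of 4207, 1458 and 5877 in the same order. It was 2.89-fold lower in BM1st than in parental cells and 4.03-fold higher in BM2nd than in BM1st cells, with log2 ratios of -1.53 and 2.01. Egr1, a zinc finger factor that mediates many responses to serum, had intensities of 10362, 3138 and 13841. It was 3.30-fold lower in BM1st than in parental cells and 4.41-fold higher in BM2nd than in BM1st cells, with log2 ratios of -1.72 and 2.14. In BM2nd cells these genes lay only slightly above the parental level, with log2 BM2nd/P ratios of 0.37 for Fos, 0.48 for Fosb and 0.42 for Egr1, none past the threshold. Each of the 3 genes has a single probe, so no second probe checks its value.

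Egr2, a relative of Egr1 that also directs myelination, followed the same order of arrays, with 270 in parental, 168 in BM1st and 502 in BM2nd cells. It was 2.99-fold higher in BM2nd than in BM1st cells, a log2 ratio of 1.58. Its log2 ratios against parental cells, -0.69 in BM1st and 0.89 in BM2nd cells, did not pass the threshold. Because background stays in the intensities, ratios of a gene as dim as Egr2 are smaller than the difference in its RNA. With the background of each array subtracted, both passed, at -1.23 and 1.21, and so did Jund in BM1st cells, at -1.03.

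**Figure D1:**
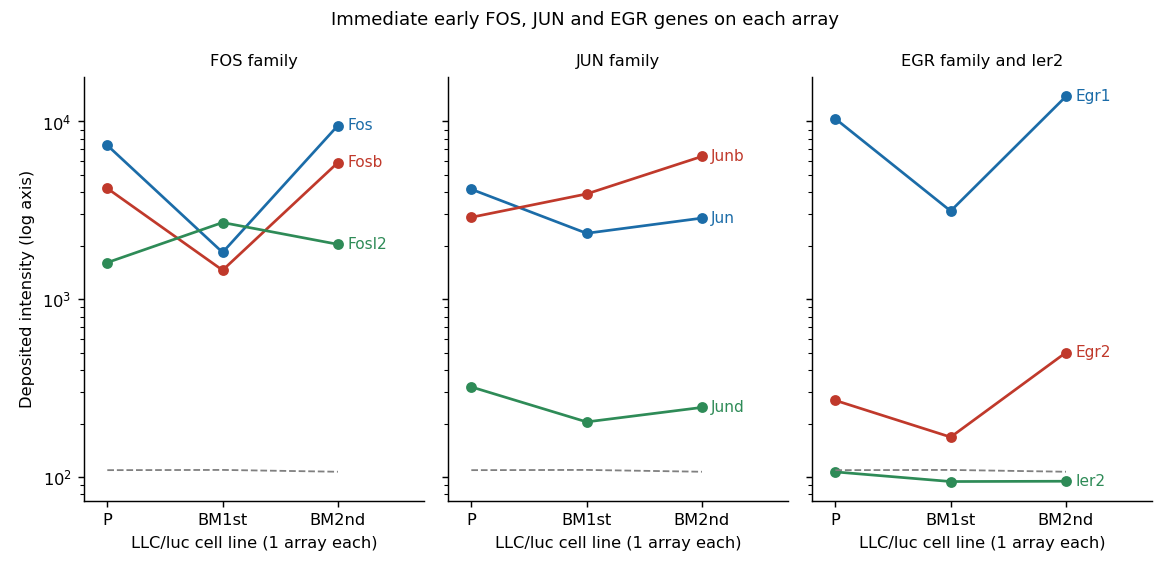
Deposited intensity (vertical log axis) of the 9 members with a probe in LLC/luc P, BM1st and BM2nd cells (horizontal axis), 1 array each and the brightest probe of each gene; the dashed line is the background of each array. Fos, Fosb, Egr1 and Egr2 are lowest in BM1st and highest in BM2nd cells, Junb is higher at each step up to 6363, Fosl2 is highest in BM1st cells at 2703, and Ier2 lies below the dashed line.

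The JUN genes and Fosl2 showed other orders. Junb, whose protein is a weaker activator than that of Jun at many sites, went from 2893 in parental to 3914 in BM1st and 6363 in BM2nd cells. It was the one member past the threshold against parental cells in BM2nd cells, 2.20-fold higher with a log2 ratio of 1.14, while its ratio of BM1st to parental cells was 0.44 and that of BM2nd to BM1st cells 0.70. Its second probe stayed under background on all arrays, at 90.4, 98.5 and 92.5, so the value of Junb rests on 1 probe. Jun, the main partner of Fos in AP-1, had intensities of 4159, 2351 and 2862. It was highest in parental cells, with log2 ratios of -0.82 in BM1st and -0.54 in BM2nd cells that did not pass the threshold. Jund, the JUN gene that is least dependent on stimulation, had intensities of 322, 204 and 247, in the same order as Jun, with log2 ratios of -0.65 and -0.38 against parental cells.

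Fosl2, which encodes the FOS-related protein Fra-2, had an intensity of 1610 in parental, 2703 in BM1st and 2039 in BM2nd cells on its brightest probe. Among the members it was the one that was highest in BM1st cells, with a log2 BM1st/P ratio of 0.75 that did not pass the threshold. Its log2 ratio of BM2nd to parental cells was 0.34. The other 2 Fosl2 probes lay close to background, at 101, 117 and 111 on one and at 107, 107 and 115 on the other. On the first of these the log2 BM1st/P ratio was 0.20, and the second was above background in BM2nd cells alone. Ier2, a small immediate early gene, had intensities of 107, 94.5 and 94.8 on its single probe, not above background on any array, so no fold is given.

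The members' counts are given beside those over all genes as a description. In BM1st against parental cells 3 of 8 members were lower, or 37.5%, where 1.79% of 10377 genes were lower, and none of the members was higher, where 2.04% of all genes were. In both directions together 3.84% of genes passed the threshold. The median log2 ratio of the members was -0.75 and that of all genes -0.0079. Fos ranked 22 from the lowest of the 10377 genes, Egr1 ranked 40 and Fosb 58. In BM2nd against BM1st cells 4 of 8 members were higher, where 3.01% of 10562 genes were, and no member was lower, where 1.78% were, or 4.79% in both directions. The median of the members was 1.14 and that of all genes -0.012, and Fos ranked 38 from the highest, Egr1 50, Fosb 60 and Egr2 120. In BM2nd against parental cells 1 of 8 members was higher, where 1.83% of 10579 genes were, and none was lower, where 1.53% were, or 3.37% in both directions. The median was 0.39 for the members and 0.0071 for all genes, and Junb ranked 144 from the highest. These comparisons share arrays with each other, so a member low in BM1st cells is bound to differ in 2 of them.

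**Figure D2:**
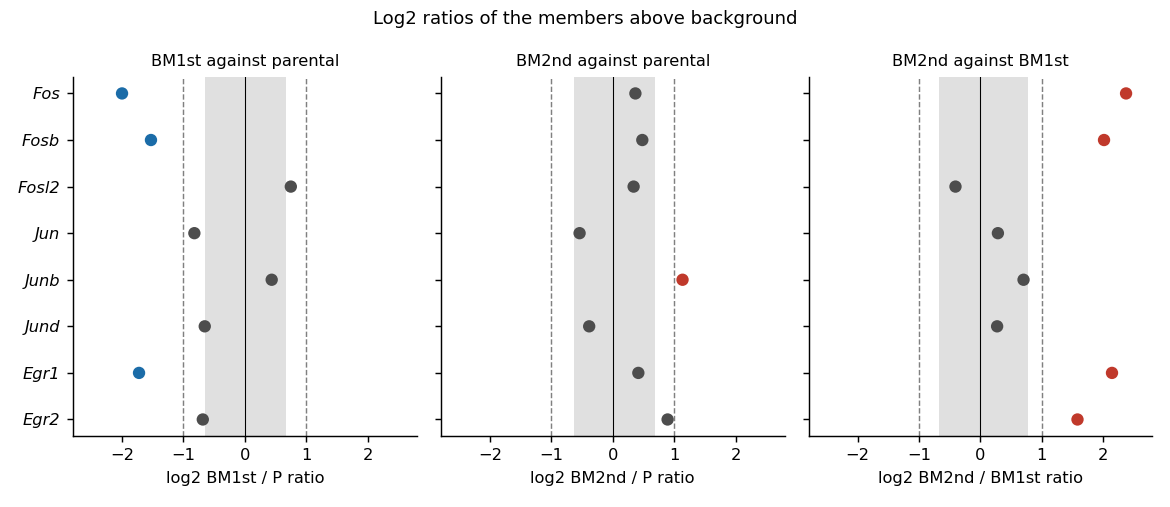
Log2 ratio (horizontal axis) of the 8 members above background (vertical axis) in each comparison, 1 array per line; dashed lines mark 1 and -1, the grey band holds the middle 90% of all genes compared, red points are higher and blue points lower. Fos, Fosb and Egr1 lie left of -1 in BM1st against parental cells and right of 1 in BM2nd against BM1st cells, and only Junb passes 1 in BM2nd against parental cells.

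Promoter windows of RefSeq on GRCm38.p6, from 250 bases before to 50 bases after a start site, were at hand for 7 members: Fos, Fosb, Fosl2, Jun, Junb, Jund and Egr2. They were searched on both strands for the CArG box, at which SRF binds, for the cAMP response element TGACGTCA, the AP-1 element TGANTCA, the EGR element GCGNGGGCG and the ETS core CCGGAAGT. The core of the cAMP response element, TGACG, was added after the windows had been read, and a full element would hold it. Windows with a match are shown: those of Fos, Fosb and Egr2, which were lowest in BM1st cells, and those of Junb and Fosl2, which were not. Jun and Jund were also lowest in BM1st cells, and their windows, which held no match, are not shown. Capitals mark every match, and all sequences run 5′ to 3′ on the strand of the gene.
Fos promoter, chr12:85473640-85473939, plus strand: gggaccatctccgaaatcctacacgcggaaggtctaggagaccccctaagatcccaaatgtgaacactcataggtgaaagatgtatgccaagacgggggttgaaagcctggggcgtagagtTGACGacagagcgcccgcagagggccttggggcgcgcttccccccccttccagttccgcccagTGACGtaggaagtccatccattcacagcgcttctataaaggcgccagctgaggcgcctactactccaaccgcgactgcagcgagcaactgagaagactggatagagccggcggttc
Fosb promoter, chr7:19309996-19310295, minus strand: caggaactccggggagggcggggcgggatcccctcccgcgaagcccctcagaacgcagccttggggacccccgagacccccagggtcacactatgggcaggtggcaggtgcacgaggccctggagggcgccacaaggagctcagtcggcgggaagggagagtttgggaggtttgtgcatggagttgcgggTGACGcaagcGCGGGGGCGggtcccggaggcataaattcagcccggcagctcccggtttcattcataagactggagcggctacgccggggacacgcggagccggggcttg
Egr2 promoter, chr10:67537619-67537918, plus strand: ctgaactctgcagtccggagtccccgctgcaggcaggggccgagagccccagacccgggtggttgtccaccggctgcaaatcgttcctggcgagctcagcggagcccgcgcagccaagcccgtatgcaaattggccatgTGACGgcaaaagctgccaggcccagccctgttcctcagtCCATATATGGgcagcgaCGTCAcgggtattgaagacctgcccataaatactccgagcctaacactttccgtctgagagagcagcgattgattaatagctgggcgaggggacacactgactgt
Junb promoter, chr8:84978699-84978998, minus strand: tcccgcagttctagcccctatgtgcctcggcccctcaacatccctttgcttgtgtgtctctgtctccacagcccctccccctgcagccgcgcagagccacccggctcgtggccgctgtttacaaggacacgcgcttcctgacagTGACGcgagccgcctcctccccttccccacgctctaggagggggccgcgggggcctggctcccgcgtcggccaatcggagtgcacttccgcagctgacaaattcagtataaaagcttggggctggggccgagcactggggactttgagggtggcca
Fosl2 promoter, chr5:32136222-32136521, plus strand: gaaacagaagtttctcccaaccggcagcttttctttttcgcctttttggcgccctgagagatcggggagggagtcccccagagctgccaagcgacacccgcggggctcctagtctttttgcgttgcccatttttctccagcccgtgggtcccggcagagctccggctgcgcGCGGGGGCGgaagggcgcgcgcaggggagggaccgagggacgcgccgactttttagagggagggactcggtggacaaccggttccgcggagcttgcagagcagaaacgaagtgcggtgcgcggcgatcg
The Fos window held the core TGACG at 2 places, from 129 to 125 and from 66 to 62 bases before the start. The Fosb window held it from 60 to 56 bases before the start and an EGR element from 50 to 42. Egr2 has 5 windows, and the one shown is the first of those with the most matches. It held a CArG box from 72 to 63 bases before the start and TGACG at 2 places, 1 of them on the other strand. The Junb window held TGACG from 106 to 102 bases before its start, and the Fosl2 window an EGR element from 79 to 71. Of all 32544 windows 20.9% held TGACG, 5.6% an EGR element and 1.64% a CArG box, while the cAMP response element, the AP-1 element and the ETS core, found in 1.8%, 7.79% and 3.92% of all windows, had no match in those of the members. A match describes the letters and is no evidence of binding, and sites farther from the start are outside these windows.

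Other immediate early genes did not share one direction. Of 35 listed genes 34 had a probe and 29 were compared in each comparison. In BM1st against parental cells 3 were higher and 1 was lower, with a median log2 ratio of -0.03. Over all genes 2.04% were higher and 1.79% lower. Klf2, a zinc finger factor of quiescent endothelium and lymphocytes, was lower like Fos, with intensities of 1593 in parental, 370 in BM1st and 1192 in BM2nd cells and a log2 BM1st/P ratio of -2.11. The higher genes were Ier3 at 1.81, an anti-apoptotic early response gene, Zfp36 at 1.34, whose protein promotes decay of cytokine mRNAs, and its relative Zfp36l1 at 1.14. Ier3 kept a high intensity in BM2nd cells, with 8221, 28755 and 25942 in parental, BM1st and BM2nd cells. In BM2nd against parental cells 5 were higher and 1 was lower, with a median of -0.09. Over all genes 1.83% were higher and 1.53% lower. Zfp36 had a log2 ratio of 3.29 and went from 955 to 2415 and 9337. Dusp1, a phosphatase that inactivates MAP kinases, was alike in parental and BM1st cells, at 2193 and 2205, and stood at 6964 in BM2nd cells, a log2 BM2nd/P ratio of 1.67. Ccn1, a secreted matrix protein gene, had intensities of 545, 352 and 1768 and a log2 BM2nd/P ratio of 1.70. Of its other probes above background 1 gave 1.23 and 1 gave 0.76. Ier3 had a log2 BM2nd/P ratio of 1.66.

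The next 4 genes are named after their values were seen. Gadd45b, a stress sensor gene, lay under background on the parental array, and BM2nd cells exceeded that bound at least 2.07-fold. Plk3, a kinase of the stress response, was lower in BM2nd cells, with 2365, 3046 and 855 on the arrays and a log2 BM2nd/P ratio of -1.47. Myc, the transcription factor that drives growth, had intensities of 1245, 1627 and 679, and Dusp5, a phosphatase of nuclear ERK, of 547, 968 and 453. Neither passed the threshold against parental cells, but both were lower in BM2nd than in BM1st cells, with log2 ratios of -1.26 and -1.10. Thus Plk3, Myc and Dusp5 were brightest in BM1st cells, where Fos, Fosb and Egr1 were dimmest. Klf2 and Ccn1 of the list were also dimmest there. In BM2nd against BM1st cells 4 of the 29 genes compared were higher: Ccn1, Dusp1, Klf2 and Zfp36. In that comparison 3 were lower: Plk3, Myc and Dusp5. Over all genes 3.01% were higher and 1.78% lower.

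**Figure D3:**
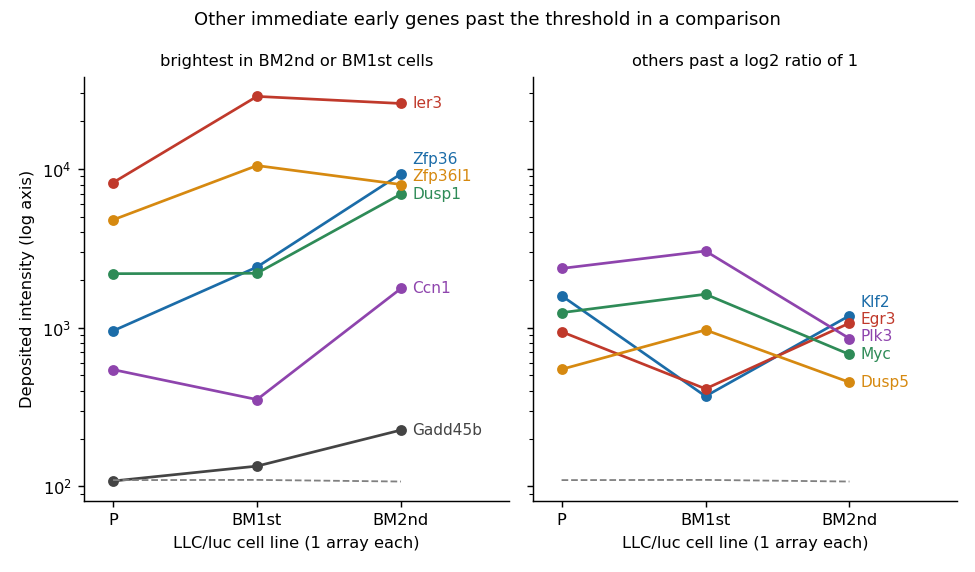
Deposited intensity (vertical log axis) of 11 other immediate early genes past a log2 ratio of 1 or -1 in at least 1 comparison, on the arrays of LLC/luc P, BM1st and BM2nd cells (horizontal axis), with the background of each array dashed. Klf2, Egr3 and Ccn1 dip in BM1st cells, Plk3, Myc and Dusp5 peak there, and Zfp36 is higher at each step.

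In the list of other EGR genes and their NAB corepressors, 4 of 5 genes had a probe and 3 were compared. Egr3 had intensities of 944, 412 and 1070 and was lower in BM1st than in parental cells, with a log2 ratio of -1.20, and higher in BM2nd than in BM1st cells, with one of 1.38. Its order of arrays was that of Egr1 and Egr2. Its other probe with signal was close to background, with a log2 BM1st/P ratio of 0.33. Egr4 was not above background on any array, and Nab2, an EGR-induced corepressor, had intensities of 226, 156 and 144 and log2 ratios of -0.54 and -0.65 against parental cells.

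Of the other bZIP partners of AP-1, which can pair with FOS or JUN proteins and include Atf3 and Maff of the list above, none of 10 compared in BM1st and none of 11 in BM2nd cells passed the threshold against parental cells. Atf3, a stress-induced member of this list, came nearest in BM1st cells, with intensities of 2214, 1146 and 1613 and log2 ratios of -0.95 in BM1st and -0.46 in BM2nd cells. Upstream of the members, none of 4 genes of SRF and its cofactors passed the threshold in any comparison. Srf itself had intensities of 1555, 958 and 1512 and a log2 BM1st/P ratio of -0.70. Likewise none of 9 MAP kinases and their upstream kinases compared in BM1st cells, or of 8 in BM2nd cells, passed it against parental cells, and their log2 BM1st/P ratios had a median of 0.01. Kinase activity is not read by RNA.

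Downstream, genes that report ERK output showed no common direction either. Against parental cells 2.04% of all genes were higher and 1.79% lower in BM1st cells, and 1.83% and 1.53% in BM2nd cells. Of 12 compared in BM1st against parental cells no gene was lower and 1 was higher, and the median was -0.06. It was Dusp4, a phosphatase that ends MAP kinase signals in the nucleus, with intensities of 1311, 5902 and 1799 and a log2 BM1st/P ratio of 2.17. Its other 3 probes with signal gave 1.88, 1.12 and 0.49. Dusp4 was therefore highest in BM1st cells, where Fos was lowest. In BM2nd against parental cells 1 of 13 was lower, the receptor gene Epha2, at -1.35. Among AP-1 target genes 2 of 15 were higher and 1 was lower in BM1st cells (median log2 BM1st/P 0.16). Mmp3, a matrix protease gene, was higher at 2.28, the metallothionein gene Mt2 was higher at 1.11 and the collagenase gene Mmp13 was lower at -1.25. In BM2nd cells 1 of 15 was higher, Mmp3 at 2.18, and 2 were lower, Mmp13 at -1.41 and Plau, which encodes urokinase, at -1.55. None of these 15 genes passed the threshold between BM2nd and BM1st cells, the step at which Fos, Fosb, Egr1 and Egr2 were higher.

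**Figure D4:**
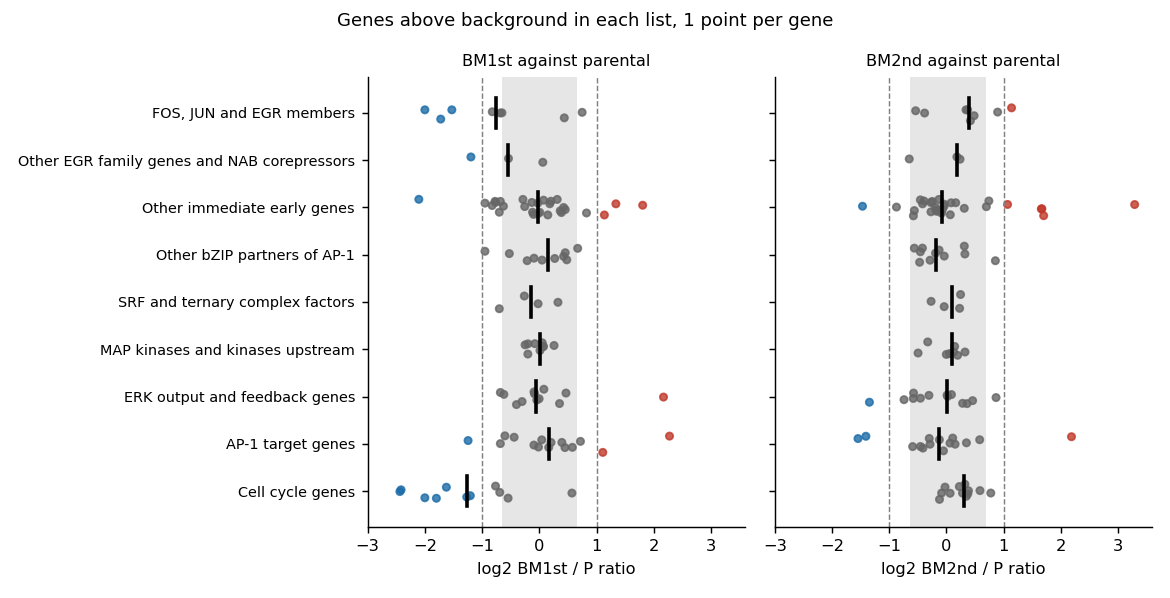
Log2 ratio to parental cells (horizontal axis) of genes above background in 9 lists (vertical axis), for BM1st cells on the left and BM2nd cells on the right, 1 point per gene and 1 array per line; black bars are medians, dashed lines mark 1 and -1, and the grey band holds the middle 90% of all genes compared. In BM1st cells the members, with a median of -0.75, and the cell cycle genes, with one of -1.27, have medians left of the band, and the lists of kinases, SRF cofactors and AP-1 partners stay within the dashed lines.

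By their pair of log2 ratios to parental cells, the genes most like Fos among 10928 genes with signal on any array were Cdca2, H2ac22, Kif23, Aurka and Hmgb2. The distance in log2 units was 0.06 for Cdca2 and 0.21 for Hmgb2, over the same 3 arrays. Kif23, for example, had intensities of 2162, 526 and 2998. For Junb they were Mxd4, Tenm4, Fscn1, Rpe and Ext1, at distances from 0.05 to 0.11. With 3 arrays many genes share an order, and this likeness is a description.

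Genes of the cell cycle were low together with Fos, Fosb and Egr1 in BM1st cells. Of 15 listed 13 had a probe, and in BM1st against parental cells 7 of 11 were lower and none was higher, with a median log2 ratio of -1.27. Over all genes 1.79% were lower and 2.04% higher. In BM2nd against BM1st cells 7 of 12 were higher, where 3.01% of all genes were, with a median of 1.23. In BM2nd against parental cells none of 12 passed the threshold, with a median of 0.30. The summed intensity of the 13 cell cycle genes was 14000 in parental, 6077 in BM1st and 17603 in BM2nd cells. Tyms, at a log2 BM1st/P ratio of -2.44, Mcm5 at -2.42, Plk1 at -2.00 and Top2a at -1.80 had the largest differences. A dimmer Tyms probe gave -0.87 and a dimmer Top2a probe -0.38, both under background in BM1st cells. The part of the cell cycle genes in the result for the members was not tested. With 1 culture per line the state of a culture and its line cannot be told apart.

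Markers of fibroblasts, marrow stroma and leukocytes also differed between the arrays. All 13 fibroblast and marrow stroma markers had a probe. Against parental cells 4 of 9 compared were higher in BM1st cells and 1 was lower, Fbln1 at -1.01. In BM2nd cells 5 of 10 were higher. Over all genes 2.04% were higher and 1.79% lower in BM1st cells, and 1.83% were higher in BM2nd cells. The summed intensity of the 13 markers was 4001 in parental, 11117 in BM1st and 19170 in BM2nd cells. Lum and Dcn, matrix proteoglycan genes, were higher in both lines, Lum with intensities of 198, 1742 and 6133 and Dcn with 1027, 6259 and 6174. Dpt, a matrix protein gene, had intensities of 142, 418 and 2213, and Pdgfra, the receptor gene that marks fibroblasts, of 258, 851 and 1068, and both were also higher in both lines. Lum, Dcn, Dpt and Pdgfra were above background in parental cells too. The paper reports that shRNA against lumican lowered its RNA and protein in BM2nd cells. Which cells held the RNA of these genes was not tested here. Col1a1, a chain of type I collagen, lay under background on the parental array, at 96.0, and stood at 120 in BM1st and 412 in BM2nd cells, at least 3.76-fold higher in BM2nd cells, while Col1a2, the other chain, was at 110, 107 and 104, above background in parental cells alone. Between BM2nd and BM1st cells 5 of 9 stroma markers were higher, where 3.01% of all genes were. Of 13 leukocyte markers 11 had a probe, with a summed intensity of 1288, 3001 and 1798. In BM1st cells 3 of 8 compared were higher, all of them not above background in parental cells. Lyz2, the lysozyme of myeloid cells, had intensities of 79.5, 1078 and 365, at least 9.84-fold higher in BM1st and 3.33-fold in BM2nd cells. Another Lyz2 probe with signal differed less, with intensities of 109, 510 and 206. Laptm5, a lysosomal gene of blood cells, had intensities of 90.1, 367 and 184, at least 3.36-fold and 1.68-fold higher, and Fcer1g was at least 2.33-fold higher in BM1st cells. Of the defining leukocyte genes, Tyrobp was not above background on any array, and Ptprc, at 102, 111 and 104, was above it in BM1st cells alone. Their part in the values of the members was not tested. Of 9 osteoclast and osteoblast markers 8 had a probe and none passed the threshold in any comparison. Of the epithelial and lung lineage markers, Krt8 had intensities of 1381, 997 and 2509 and Krt18 of 2025, 2280 and 1274, and Epcam, Nkx2-1, Sftpc and Scgb1a1 were not above background on any array. Of these markers 3 were compared in BM2nd against BM1st cells, with a median log2 ratio of 0.10. Krt8 alone passed the threshold, at 1.33, while Krt18, at 2280 and 1274, went the other way. The lowest ratio of the 3 was -0.84, and 3.01% of all genes were higher at that step.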

How the data were processed

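Total RNA of LLC/luc P, BM1st and BM2nd cells had been hybridised by the authors to 1-colour Illumina mouse bead arrays, 1 per line. The deposited values are intensities on a linear scale for 45281 probes. The submitters' processing notes name GenomeStudio 2011.1, while its normalization settings are not stated in the sources used. Sorted intensities of the arrays differed by at most 0.274, as after quantile normalization, and the lowest was 60.2, so background had not been subtracted.

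Genes were assigned to probes by the platform annotation, and RefSeq GRCm38.p6 gave current symbols: 34885 probes had 1 gene, 18 several and 10378 none. A gene's value is that of its brightest probe by mean log2 intensity. Ratios and counts were made in pandas 2.3.3 and numpy 2.4.6 under Python 3.11.15 and drawn in matplotlib 3.10.9, and counting was first tested on simulated data. Depth has no counterpart on an array. The members, the gene lists and the rule for named genes were chosen with earlier results of these data known. That rule took every member, up to 4 genes of each list past the threshold by each ratio to parental cells, the 5 genes most like the members with the largest ratios, and defining markers. Egr4, Nab2, Atf3, Srf, the epithelial genes other than Krt8 and Krt18 and the heat shock genes were named after their values were seen. With 1 array per line no test over replicates could be run. Other settings were tried for background, centring, the probe taken and the threshold. Background subtraction took the median of the receptor probes of each array from its intensities, with a floor of 16.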

Additional observations from a re-analysis of the deposited data

How the results depend on the processing

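Between 0 and 6 of the 8 members passed in a given direction, depending on the threshold. No called member changed sign under any of the 9 alternatives, but most of these could not change such a ratio. Settings of the filter or the threshold leave ratios as they are, and the called members have a single probe with signal. Only background subtraction and the centring of each array on its own probes moved these ratios, so the unchanged signs say little. In BM2nd against parental cells 194 of all genes were higher, against 627 with background subtracted, 734 at a threshold of 0.58 and 78 at 1.5. Of the members 1 was higher, against 2 (Junb and Egr2) with background subtracted, 2 at 0.58 and 0 at 1.5. Centring each array on its own probes above background, chosen after the data were seen, also gave 2, since it moved all log2 ratios of BM2nd cells by 0.14 against parental and 0.16 against BM1st cells; Egr2 then had a BM2nd/P ratio of 1.03. That centring raised the share of higher calls among all genes from 54.5% to 72.9% in BM2nd against parental cells, with 285 higher and 106 lower in place of 194 and 162, and from 62.8% to 80.2% in BM2nd against BM1st cells, with 465 and 115 in place of 318 and 188. In BM1st against parental cells 3 members were lower. The count was 5 with background subtracted and 6 at 0.58, where 1, Fosl2, was also higher. Over all genes the lower count went from 186 to 600 with background subtracted and to 668 at 0.58. The ratio of Fos to parental cells in BM1st cells ranged from -2.06 to -2.00, that of Fosb from -1.59 to -1.53 and that of Egr1 from -1.75 to -1.72. The planned centring on probes above background on any array changed nothing, as the medians of the arrays were equal.

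Over all genes of the pathway lists other than the members, 6 were higher and 4 lower in BM2nd against parental cells. The lower count became 7 with background subtracted, 9 at 0.58 and 1 at 1.5, and the higher count 15 at 0.58. In BM1st against parental cells 6 were higher and 10 lower, against 11 higher with background subtracted, 10 and 22 at 0.58, and 3 and 6 at 1.5. In BM2nd against BM1st cells 12 were higher and 4 lower, against 11 lower with background subtracted, 23 and 13 at 0.58, and 2 lower at 1.5. Over all genes, BM2nd against parental cells gave 194 higher and 162 lower, against 627 and 494 with background subtracted, 734 and 660 at 0.58, and 78 and 35 at 1.5. BM1st against parental cells gave 212 and 186, against 619 and 600, 686 and 668, and 95 and 59 in these settings, and BM2nd against BM1st cells 318 and 188, against 830 and 607, 912 and 767, and 136 and 43. No paired analysis was possible because there is 1 array per line, and for the same reason no array could be left out. Values near background understate differences in RNA.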

Other observations

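Heat shock genes, which dissociation and handling of cells can also induce, did not pass the threshold. Of 9 listed genes 6 were compared, and none was higher or lower in any of the 3 comparisons. Their median log2 ratio was 0.29 in BM1st and 0.50 in BM2nd against parental cells, where those of all genes were -0.0079 and 0.0071. Hspa8, a constitutive chaperone gene, had intensities of 11264 in parental, 13898 in BM1st and 18199 in BM2nd cells, and Dnajb1, a cochaperone, of 2102, 2534 and 3231. The strongly inducible genes Hspa1a and Hspa1b were not above background on any array. The part of handling in the values of the members was not tested.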
